A study of Mus musculus with 24 samples.

Results

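MHC class I molecules and the proteins that load them with peptide were followed across the cortex of 4 mouse strains given CBE or saline. The group comprised 10 genes, taken as the rows of the deposited value table whose platform annotation gave the gene's symbol. Of these, 9 had a probe set of their own (H2-K1, H2-Q4, H2-T23, B2m, Tap1, Tap2, Tapbp, Tapbpl and Nlrc5), out of 22180 genes in all. H2-D1 had none, because the probe set annotated to it is also annotated to H2-Q2. Where a gene had several probe sets, the brightest on average across the 24 arrays stood for it.

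Almost every cell can show peptides from its own proteins on class I molecules. A class I molecule is a heavy chain, encoded in the H2 region of the mouse, paired with the light chain beta-2-microglobulin (B2m). The transporter formed by Tap1 and Tap2 carries peptides into the endoplasmic reticulum, where tapasin (Tapbp) holds empty class I molecules at the transporter and the related Tapbpl also edits peptides. Nlrc5 is an activator of class I genes, and interferons raise the pathway in most tissues. Neurons and glia normally make little class I, and CD8 T cells and natural killer cells are the cells that read it.

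Arrays were made from 24 male mice aged 18 days, 1 array per mouse, in 8 groups of 3. Mice of the strains SV129, FVB, C57 (labelled C57BL/6JOlaHsd) and C3H received CBE (conduritol B-epoxide) at 25 mg per kg per day, injected into the peritoneum from day 8 to day 18, or PBS (phosphate-buffered saline). CBE inhibits the lysosomal enzyme glucocerebrosidase, and the CBE mice model neuronopathic Gaucher disease while the PBS mice were the healthy controls. The labels name no engineered allele, and CBE was given to the whole animal rather than to 1 cell type. The tissue was a coronal slice of cortex, so all its cell types contributed. Values are log2 signal, and their number per group, 3, limits the precision. The median of all probe sets was 4.18, and a gene near it lies close to background, which can shrink a change.

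On the tissue check, Slc17a7 (11.03 to 11.43) and Camk2a (11.58 to 12.08), markers of cortical excitatory neurons, were high on all 24 arrays. C3H CBE array 1 stood above the other 2 CBE arrays of its strain in most of the genes described here, and results that rest on it are also given without it. Each change is the log2 signal with CBE less that with PBS, ± the limma standard error, and a change is said to have passed where its Benjamini-Hochberg adjusted p over 22180 genes lay below 0.05.

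The stretches upstream of the transcription start are shown for the 7 genes with a window, to set the motifs of the heavy chains beside those of B2m, Tap1 and Tapbp. Each holds the 200 bases before the start, read along the gene, from RefSeq on GRCm38.p6, the C57BL/6J genome. Capitals mark matches, on either strand, to 5 spellings. These were AANNGAAA (a loose core of the interferon response element), GAAA with any 2 bases and GAAA again (the strict core, which contains the loose one), GGGA with any 4 bases and CC (a kappa B site), CCAAT (the Y box) and TGACG (a half-site for CREB).
H2-K1, chr17:34000334-34000533, minus strand: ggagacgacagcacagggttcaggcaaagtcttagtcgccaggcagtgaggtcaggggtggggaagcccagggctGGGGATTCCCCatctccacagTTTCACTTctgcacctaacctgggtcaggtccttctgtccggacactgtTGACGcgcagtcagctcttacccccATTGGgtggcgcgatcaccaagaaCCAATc
H2-D1, chr17:35262894-35263093, plus strand: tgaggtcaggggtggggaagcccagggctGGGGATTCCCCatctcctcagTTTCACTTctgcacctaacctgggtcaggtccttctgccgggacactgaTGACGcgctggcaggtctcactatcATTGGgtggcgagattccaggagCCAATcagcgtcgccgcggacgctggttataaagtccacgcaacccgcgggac
H2-Q4, chr17:35379417-35379616, plus strand: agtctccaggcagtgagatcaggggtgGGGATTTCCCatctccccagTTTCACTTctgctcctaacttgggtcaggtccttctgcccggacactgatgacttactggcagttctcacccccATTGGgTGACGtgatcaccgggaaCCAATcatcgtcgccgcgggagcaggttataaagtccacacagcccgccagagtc
H2-T23, chr17:36032702-36032901, minus strand: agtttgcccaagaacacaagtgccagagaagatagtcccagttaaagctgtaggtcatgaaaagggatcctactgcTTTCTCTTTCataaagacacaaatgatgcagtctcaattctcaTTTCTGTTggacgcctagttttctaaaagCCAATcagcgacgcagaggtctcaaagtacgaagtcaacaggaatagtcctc
B2m, chr2:122147487-122147686, plus strand: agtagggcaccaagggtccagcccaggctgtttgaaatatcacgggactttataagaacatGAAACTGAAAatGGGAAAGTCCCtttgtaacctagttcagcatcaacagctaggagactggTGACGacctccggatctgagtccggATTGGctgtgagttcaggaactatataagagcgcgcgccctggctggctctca
Tap1, chr17:34187356-34187555, plus strand: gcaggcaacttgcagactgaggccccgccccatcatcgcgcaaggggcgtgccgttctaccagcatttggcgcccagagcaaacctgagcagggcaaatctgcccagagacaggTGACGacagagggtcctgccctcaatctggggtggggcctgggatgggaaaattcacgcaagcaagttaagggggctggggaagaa
Tapbp, chr17:33919278-33919477, plus strand: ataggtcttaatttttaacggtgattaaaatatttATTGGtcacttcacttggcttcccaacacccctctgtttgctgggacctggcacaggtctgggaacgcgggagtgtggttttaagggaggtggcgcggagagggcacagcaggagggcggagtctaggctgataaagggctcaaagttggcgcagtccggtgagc

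In H2-K1, H2-D1 and H2-Q4 a kappa B match stood just before the same loose interferon core, TTTCACTT, with the CREB half-site and a pair of Y boxes nearer the start. The probe set that H2-D1 shares with H2-Q2 changed by 0.07 in the mean of strains. That probe set lay around background, at 3.65 to 4.19, and says little about H2-D1. Whether the layout goes with a change was not tested. B2m held the strict interferon core as GAAACTGAAA, from base -139 counted from its start, next to a kappa B match, and H2-T23 held it as TTTCTCTTTC from base -124. Over the 200-base windows of 27025 genes, the strict core occurred in 2.32%, the loose core in 17.3%, the kappa B spelling in 14.6%, CCAAT in 29.5% and TGACG in 15.3%. Tap1 matched TGACG alone and Tapbp CCAAT alone in this window. H2-K1 has 2 listed starts, and the one further downstream was used. A match describes letters only, and the spellings were chosen with these sequences in view. Windows for Tap2, Tapbpl and Nlrc5 were not used here.

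Most of the class I pathway genes measured were higher with CBE in the mean of the 4 strains. The heavy chains H2-K1 and H2-Q4, the light chain B2m, the transporter subunit Tap1 and tapasin rose, while H2-T23, Tap2, Tapbpl and Nlrc5 did not pass. Of the 9 genes, 5 rose and 0 fell, against 0.726% of all genes tested that passed in either direction and 0.609% that rose. The median change of the 9 was 0.52, against -0.01 for all genes. These 5 calls held without any single array. The members were chosen with results of these arrays known, so this count is a description of the group.

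**Figure D1:**
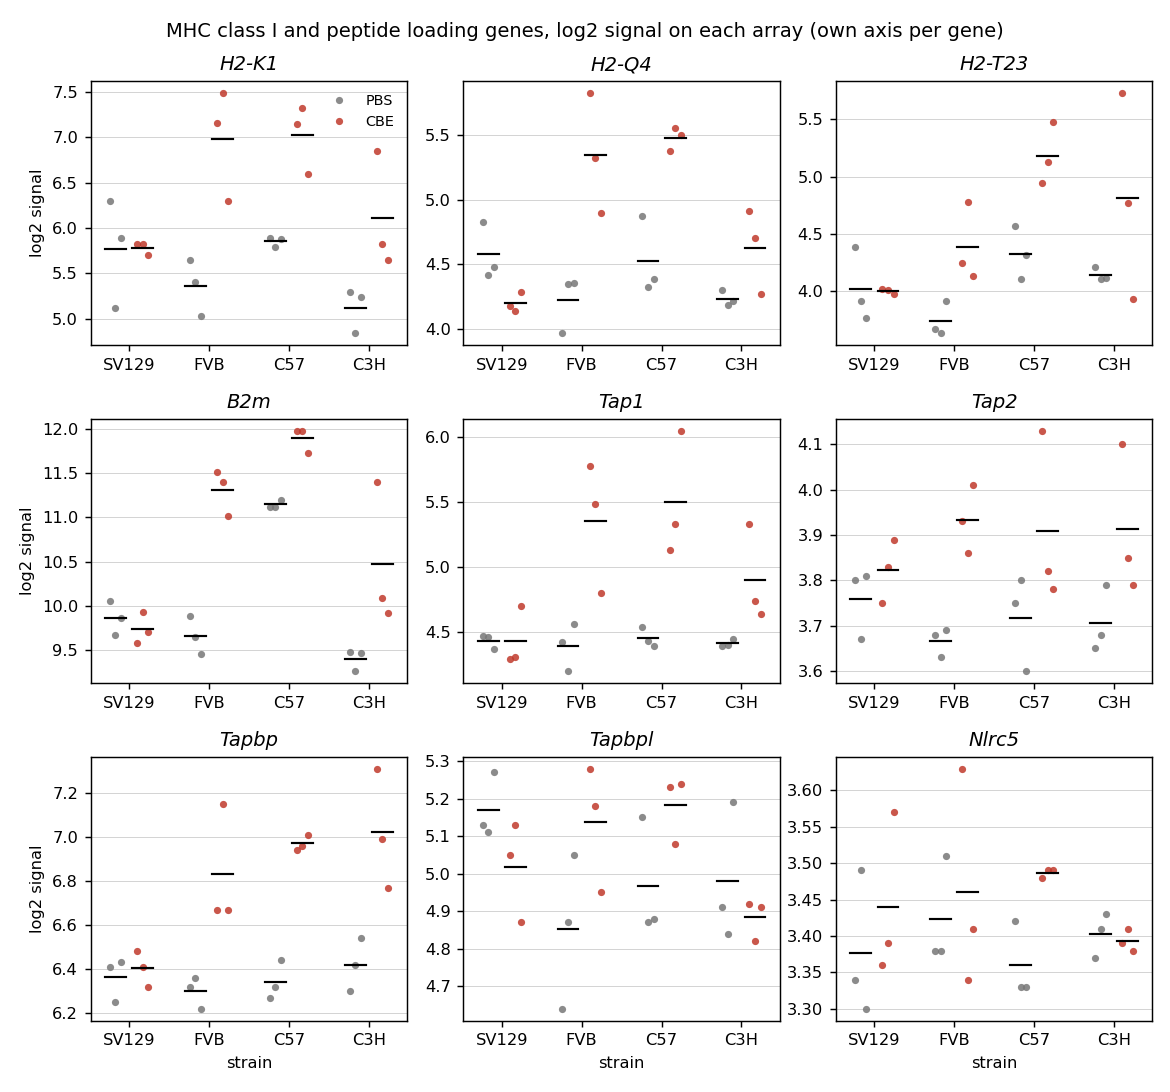
Log2 signal of the 9 genes on each of the 24 arrays, by strain, with PBS in grey and CBE in red and a line at the mean of 3 arrays. Each gene has its own axis. In FVB the 3 CBE arrays lie above the 3 PBS arrays for 7 genes, in SV129 for 0.

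H2-K1 (probe set 17343710), a classical heavy chain that presents peptides to CD8 T cells, is given first. In SV129 it read 6.30, 5.12 and 5.89 on the PBS arrays and 5.82, 5.83 and 5.70 on the CBE arrays. All the CBE values fell inside the PBS range, which was wide because PBS array 2 was low and PBS array 1 high. In FVB the PBS arrays read 5.65, 5.40 and 5.03 and the CBE arrays 7.16, 7.49 and 6.30. In C57 they read 5.89, 5.79 and 5.88 against 7.15, 7.33 and 6.60, and in C3H 5.29, 4.84 and 5.24 against 6.85, 5.83 and 5.65. In these 3 strains every CBE array lay above every PBS array, the least clearly in C3H. H2-K1 rose by 0.95 ± 0.15 in the mean of 4 strains (adjusted p = 0.0014), a 1.93-fold rise, with 11 of 12 CBE arrays above their strain's PBS mean. None of the 9 genes had all 12 arrays above it, which 0.546% of all genes did. Within strains it rose by 1.63 ± 0.31 in FVB (adjusted p = 0.023). The change was 1.17 in C57 (adjusted p = 0.18), 0.98 in C3H (adjusted p = 0.67) and 0.01 in SV129 (95% interval -0.63 to 0.65).

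H2-Q4 (probe set 17337100) is a non-classical heavy chain of the Qa group. In SV129 it read 4.83, 4.42 and 4.48 on PBS and 4.18, 4.14 and 4.29 on CBE arrays, so there all the CBE arrays lay below the PBS arrays. In FVB the values were 3.97, 4.35 and 4.36 against 5.82, 5.32 and 4.90. In C57 they were 4.87, 4.33 and 4.39 against 5.37, 5.55 and 5.50. Both of these strains separated the other way, with CBE above PBS. In C3H, at 4.30, 4.19 and 4.22 against 4.91, 4.70 and 4.27, the groups overlapped through CBE array 3. H2-Q4 rose by 0.52 ± 0.09 in the mean (adjusted p = 0.0048), by 1.12 ± 0.19 in FVB (adjusted p = 0.0061) and by 0.95 ± 0.19 in C57 (adjusted p = 0.023). Its change was 0.39 in C3H and -0.37 in SV129, where the adjusted p was 0.41. Its other probe set, 17344331, stayed between 3.47 and 3.97 on all arrays and changed by 0.03 in the mean of strains, so the calls belong to the brighter probe set.

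H2-T23 (probe set 17344568) encodes Qa-1, which natural killer cell receptors recognise. Its CBE arrays read 4.24, 4.78 and 4.13 in FVB against 3.67, 3.63 and 3.91 on PBS, and 4.94, 5.13 and 5.48 in C57 against 4.57, 4.10 and 4.31. Both strains separated. In C3H the CBE arrays were 5.73, 4.77 and 3.93 around PBS values of 4.10 to 4.21, the widest spread of any group for this gene, and in SV129 all 6 arrays lay between 3.76 and 4.38. The change was 0.54 ± 0.14 in the mean (adjusted p = 0.092), and 0.65 in FVB, 0.86 in C57, 0.67 in C3H and -0.02 in SV129. Without C3H CBE array 3, the low one, the mean passed (adjusted p = 0.0017), and in C3H the change was then 1.11 (adjusted p = 0.046).

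The probe set shared by H2-D1 and H2-Q2 lay between 3.65 and 4.19 on all 24 arrays, around background, and says little about H2-D1. Of 5 other shared class I probe sets, 3 had larger changes and 2 did not. One annotated to H2-Q7, H2-Q8 and H2-Q9 changed by 1.49 in FVB, 0.97 in C57, 0.54 in C3H and -0.39 in SV129. One annotated to H2-Q6 and H2-Q8 changed by 1.39, 1.10, 0.16 and -0.54 in the same order, and one annotated to H2-T22 and H2-T9 by 0.16, 1.18, 0.77 and 0.27. A second probe set of H2-Q7, H2-Q8 and H2-Q9 changed by -0.04 in the mean of strains and one of H2-T3 and H2-T18 by 0.03. Their median signals, 3.24 and 3.55, lay below the median of all probe sets, so they say little about these genes. The 3 with larger changes had medians of 5.41, 4.59 and 5.52 in the order given. Heavy chain genes are close copies of one another, and their H2 haplotypes differ: C57BL/6 and SV129 mice commonly carry the b haplotype, C3H the k and FVB the q haplotype. A heavy chain signal may therefore include its relatives, and levels of these probe sets between strains are differences of signal. How far haplotype sets them was not tested.

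B2m (probe set 17375373), the light chain of every class I molecule, lies outside the H2 region. In PBS mice it read 11.12, 11.12 and 11.20 in C57, against 10.05, 9.67 and 9.86 in SV129, 9.88, 9.65 and 9.45 in FVB and 9.48, 9.26 and 9.46 in C3H. C57 stood above all 9 other PBS arrays, and the other strains overlapped their neighbours in that order. It was the single gene of the 9 that differed between the saline groups of the strains (F-test, adjusted p = 1.2e-04), where 13.0% of all genes did. C57 was higher by 1.28 ± 0.24 than SV129 (adjusted p = 0.0015), by 1.48 than FVB (adjusted p = 3.9e-04) and by 1.74 than C3H (adjusted p = 6.9e-05). Between single pairs of strains, 7.72%, 7.91% and 6.70% of all genes differed in these comparisons. The differences among SV129, FVB and C3H ran from 0.20 to 0.46 with adjusted p of 0.46 or more, where 3.88% (SV129 and FVB), 2.34% (SV129 and C3H) and 2.28% (FVB and C3H) of all genes differed. C57BL mice are known to carry another B2m allele than many laboratory strains, and whether the probes meet a strain variant was not tested.

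With CBE, B2m read 11.51, 11.40 and 11.01 in FVB and 11.98, 11.98 and 11.73 in C57. It read 11.40, 10.09 and 9.92 in C3H and 9.58, 9.93 and 9.70 in SV129. Every CBE array lay above every PBS array of its strain in FVB, C57 and C3H, while in SV129 the groups overlapped. B2m rose by 0.84 ± 0.12 in the mean (adjusted p = 3.5e-04) and by 1.65 ± 0.24 in FVB, a 3.13-fold rise (adjusted p = 0.0016). Its change was 1.07 in C3H (adjusted p = 0.19), 0.75 in C57 (adjusted p = 0.42) and -0.12 in SV129 (95% interval -0.62 to 0.37). In FVB this brought the signal near the level that C57 had on PBS.

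The transporter subunits differed in how clearly they moved. Tap1 (probe set 17336432) read between 4.20 and 4.56 on all 12 PBS arrays, with strain means of 4.39 to 4.45, so its baseline showed little spread (F-test of PBS groups, adjusted p = 1.0). With CBE it read 5.78, 5.49 and 4.80 in FVB, 5.13, 5.33 and 6.05 in C57, 5.33, 4.74 and 4.64 in C3H and 4.29, 4.31 and 4.70 in SV129. All CBE arrays lay above the PBS arrays in FVB, C57 and C3H, and in SV129 just array 3 did. Tap1 rose by 0.63 ± 0.11 in the mean (adjusted p = 0.0035) and by 1.05 ± 0.22 in C57 (adjusted p = 0.032). The C57 call ended in an ordinary linear model (adjusted p = 0.155), on the 6 C57 arrays alone (0.09) and, just, with the replicate number as a block (0.0501). It changed by 0.96 in FVB (adjusted p = 0.11), 0.49 in C3H (adjusted p = 0.96) and 0.00 in SV129. Tap2 (probe set 17336458) lay below the median of all probe sets on every array, between 3.60 and 4.13. Its change was 0.18 ± 0.05 in the mean (adjusted p = 0.078), with 11 of 12 CBE arrays above their PBS mean, and it passed without C3H CBE array 3 (adjusted p = 0.039).

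Tapbp (probe set 17336228), tapasin, had the smallest adjusted p of the 9 in the mean. Its PBS arrays read between 6.22 and 6.54, with strain means of 6.30 to 6.42. The CBE arrays read 6.67, 7.15 and 6.67 in FVB, 6.94, 6.96 and 7.01 in C57, 7.31, 6.99 and 6.77 in C3H and 6.48, 6.41 and 6.32 in SV129. The groups were apart in FVB, C57 and C3H and overlapped in SV129. Tapbp rose by 0.45 ± 0.06 in the mean (adjusted p = 1.8e-04), or 1.37-fold, and by 0.63 ± 0.12 in C57 (adjusted p = 0.019). The change was of like size in C3H, 0.60 (adjusted p = 0.09), and in FVB, 0.53 (adjusted p = 0.11), and 0.04 in SV129. A dimmer probe set of Tapbp, 17343675, stayed between 3.67 and 4.27 and changed by 0.07 in the mean.

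Tapbpl (probe set 17471062), the second peptide editor, read 4.64 to 5.28 on all arrays. It changed by 0.06 ± 0.06 in the mean (95% interval -0.06 to 0.18, adjusted p = 0.77), with 0.28 in FVB and 0.22 in C57 but -0.16 in SV129 and -0.10 in C3H. Nlrc5 (probe set 17504023), the transcriptional activator of class I genes, read 3.30 to 3.63 and lay below the median of all probe sets on every array. Its change was 0.05 ± 0.04 (95% interval -0.02 to 0.13, adjusted p = 0.67). In C57 its CBE arrays (3.48, 3.49 and 3.49) lay above the PBS arrays (3.42, 3.33 and 3.33), a change of 0.12 with an adjusted p of 0.95. At such a low signal a change of the transcript may not have been detectable.

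**Figure D2:**
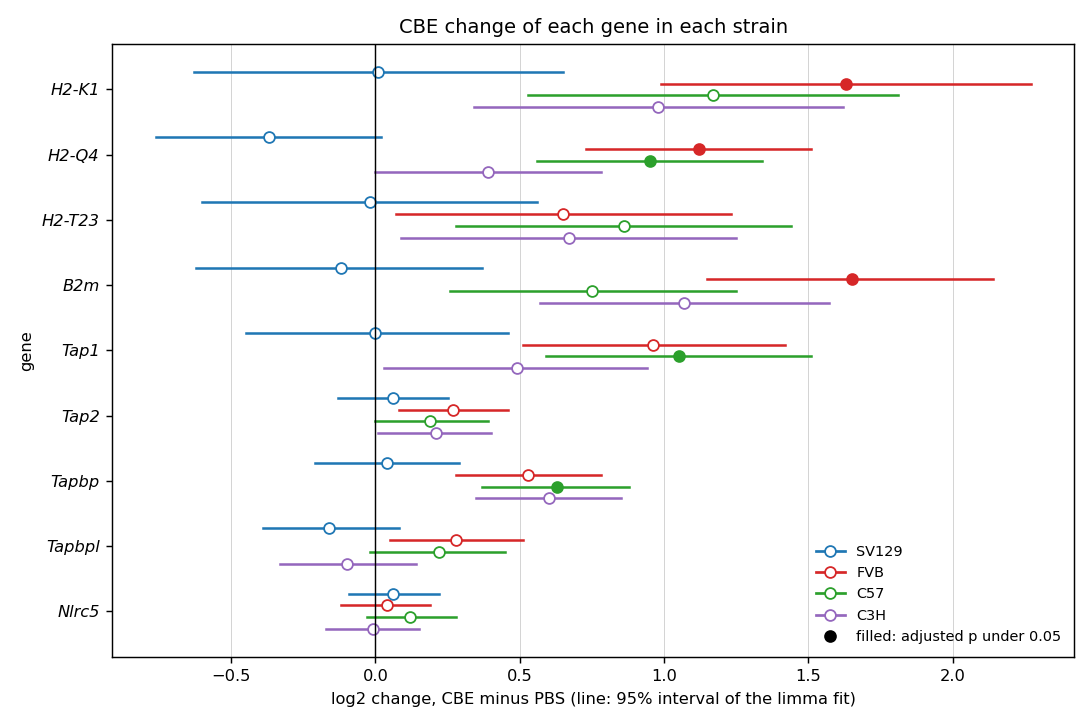
Log2 change, CBE minus PBS, of each gene in each strain, with the 95% interval of the limma fit. Filled points passed at an adjusted p under 0.05. The SV129 intervals of all 9 genes include 0, and the FVB interval of B2m runs from 1.15 to 2.14.

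Strain by strain, 3 of the 9 genes rose in FVB (H2-K1, H2-Q4 and B2m), where 0.135% of all genes rose, and 3 in C57 (H2-Q4, Tap1 and Tapbp), where 0.316% did. None passed in SV129 or C3H by limma, where 0.113% and 0.0361% of all genes passed. At an unadjusted p under 0.05, 6 of the 9 passed in C3H, where 5.02% of all genes did, and 0 in SV129, where 13.0% did. The 3 CBE arrays lay above the 3 PBS arrays for 7 genes in FVB, 7 in C57, 4 in C3H and 0 in SV129. Among all genes this held for 5.09%, 5.82%, 4.50% and 6.52%. The opposite order held for H2-Q4 alone, in SV129, and for 8.99% of all genes there, 5.96% in FVB, 7.22% in C57 and 5.17% in C3H. With 3 mice a side the smallest exact permutation p is 0.1, and the strain calls use a spread estimated over all 8 groups.

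Most strain calls were lost in some fit that left out 1 array. Such a fit also has fewer mice, and a left-out array of another strain alters the estimated spread but not the strain's own change. Over these fits the C57 change ran from 0.59 to 0.67 for Tapbp and from 0.78 to 1.24 for Tap1. The FVB change of H2-K1 ran from 1.37 to 1.97. In FVB, H2-K1 did not pass without FVB PBS 2, PBS 3, CBE 1 or CBE 2 (adjusted p up to 0.19), and H2-Q4 without FVB PBS 1 or CBE 1 (up to 0.077), while B2m passed without any single array. FVB had 1 call without FVB CBE 1 (0.135% of all genes passed) and 5 without C3H CBE 1, when Tap1 (adjusted p = 0.032) and Tapbp (0.02) were added and the share of all genes was 0.383%. The FVB calls of H2-K1 and H2-Q4 also ended in an ordinary linear model (0.162 and 0.0623) and on the 6 FVB arrays alone (0.0815 and 0.125). Tap1 also passed in FVB without FVB CBE 3 (0.0088) or C57 CBE 3 (0.034). In C57, H2-Q4 was lost without C57 PBS 2, PBS 3, CBE 2 or CBE 3 (up to 0.17), Tap1 without any C57 PBS array, CBE 2 or CBE 3 (up to 0.31), and Tapbp without PBS 1, PBS 2, CBE 2 or CBE 3 (up to 0.13). C57 thus had 1 call without PBS 1 or PBS 3, 0 without PBS 2, CBE 2 or CBE 3, in fits that called 0.135% to 0.230% of all genes. Without C3H CBE 1 it had 5, which added H2-K1 (0.047) and B2m (0.0036), and 0.613% of all genes passed. An ordinary linear model also ended the C57 calls of H2-Q4 (0.108) and Tapbp (0.0806). C3H had 3 calls without its CBE array 3, where 0.234% of all genes passed: Tapbp (0.0086), B2m (0.014) and H2-T23 (0.046), with Tapbp also passing without FVB CBE 2 (0.024). Without C3H CBE array 1 the C3H changes were 0.61 for H2-K1, 0.61 for B2m, 0.28 for Tap1, 0.25 for H2-Q4, 0.21 for H2-T23 and 0.11 for Tap2, each smaller than with it by over 1.5 times.

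**Figure D3:**
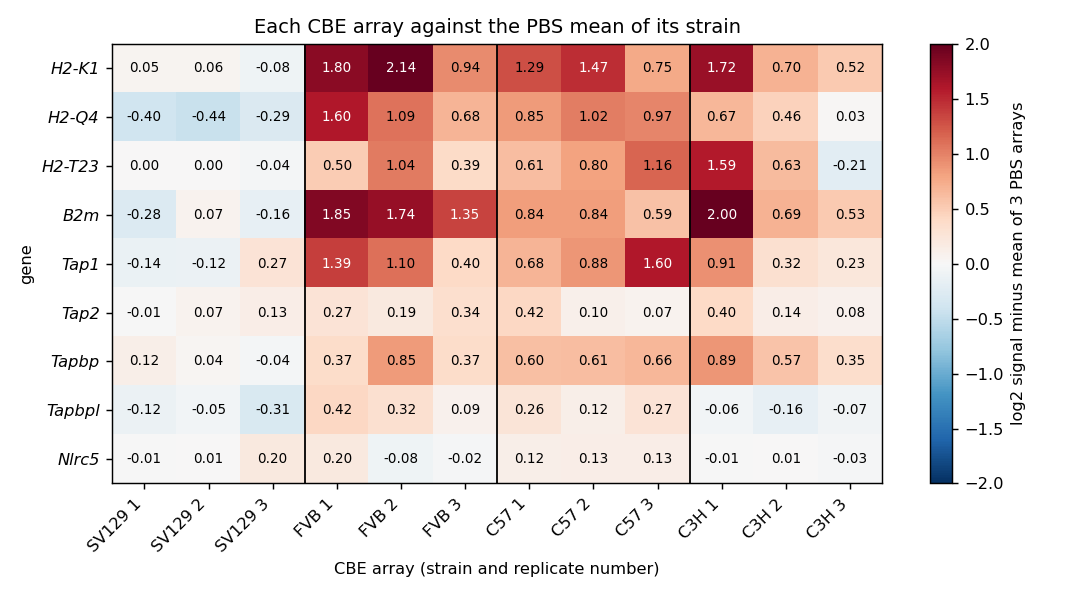
Log2 signal of each CBE array minus the mean of the 3 PBS arrays of its strain, for the 9 genes. For B2m, C3H array 1 lies far above arrays 2 and 3, at 0.69 and 0.53, and the SV129 columns lie between -0.44 and 0.27.

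Whether the strains differed in their response was tested directly. By the F-test of equal changes 0 of the 9 genes passed by limma and 0.00902% of all genes did. At an unadjusted p under 0.05, 6 of the 9 passed and 6.57% of all genes. H2-Q4 had the smallest adjusted p, 0.14, followed by B2m with 0.25. The H2-Q4 change in SV129 was lower than in FVB by 1.49 ± 0.27 (adjusted p = 0.076) and lower than in C57 by 1.32 ± 0.27 (adjusted p = 0.1). The B2m change in SV129 was lower than in FVB by 1.77 ± 0.34 (adjusted p = 0.11). None of the 9 genes passed in any of the 6 pairs of strains by limma, and of all genes 0.0361% differed between SV129 and C57, 0.00451% in each pair among FVB, C57 and C3H, and 0 between SV129 and FVB or C3H. Without C3H CBE array 1 the F-test passed for B2m (adjusted p = 0.0012) and H2-Q4 (adjusted p = 0.034), in a fit where 0.113% of all genes passed it. Then B2m differed between SV129 and FVB (adjusted p = 7.1e-05), and H2-Q4 between SV129 and both FVB (adjusted p = 0.035) and C57 (adjusted p = 0.03). Of all genes, 0.0361% then differed between SV129 and FVB and 0.203% between SV129 and C57. H2-Q4 also passed the F-test without FVB CBE array 3 (adjusted p = 0.034). SV129 and C57 commonly share an H2 haplotype. The PBS level of SV129 minus that of C57 was -0.08 for H2-K1 (95% interval -0.72 to 0.56). It was 0.05 for H2-Q4 (-0.34 to 0.44) and -0.31 for H2-T23 (-0.89 to 0.27). Whether haplotype affects the CBE changes was not tested.

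Other genes of the pathway are given from 3 lists. Of 16 genes that supply peptide or fold class I, 15 were measured, 2 rose and 0 fell, with a median change of -0.01. The risers were Psmb8, a proteasome subunit that interferon switches in, by 0.47 ± 0.07 (adjusted p = 5.7e-04), and Psme1, part of the PA28 proteasome cap, by 0.31 ± 0.07 (adjusted p = 0.038). Psmb8 also rose in C57 by 0.69 (adjusted p = 0.029). The chaperones Calr, Canx and Pdia3, which fold heavy chains and complete the loading complex, changed by 0.01, -0.06 and -0.01, and the trimming enzyme Erap1 by 0.19 (adjusted p = 0.32). In SV129, where the 9 genes had a median change of 0.00, Psmb8 changed by 0.25 and Psme1 by 0.31, neither past the threshold.

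Of 21 regulators of class I transcription 19 were measured, 3 rose and 0 fell, with a median of 0.04. These were Irf7, a master regulator of type I interferon, by 1.25 ± 0.14 (adjusted p = 1.8e-05), and Irf9 and Stat2, which join in the factor that interferon receptors activate, by 0.85 ± 0.10 (adjusted p = 3.8e-05) and 0.54 ± 0.06 (adjusted p = 2.8e-05). The same 3 rose in C57, by 1.89, 1.33 and 0.97. In SV129 they changed by 0.48, 0.30 and 0.23, none past the threshold. The RFX and NF-Y subunits, which bind the X and Y boxes, changed by between -0.08 and 0.01. Irf1, an interferon-gamma target that drives class I genes, changed by 0.04 (adjusted p = 0.9) at a signal of 3.77 to 4.39.

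Other class I and class I-like genes gave 14 measured of 22, with 0 past the threshold in the mean by limma and a median of 0.05. The smallest p were H2-T24 at 0.28 ± 0.07 (adjusted p = 0.054) and H2-Q5 at 0.33 ± 0.10 (adjusted p = 0.16). The neonatal Fc receptor chain Fcgrt, which also pairs with B2m, changed by -0.08, and the iron regulator Hfe by 0.04.

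**Figure D4:**
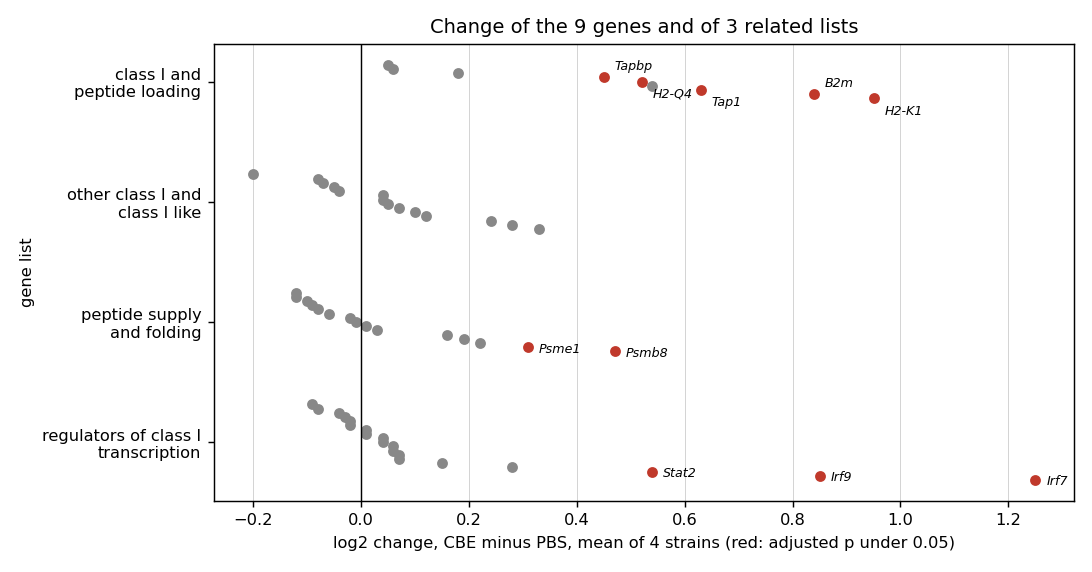
Log2 change, CBE minus PBS, in the mean of 4 strains for the 9 genes and for each gene of 3 related lists, with genes past an adjusted p of 0.05 in red. The red genes are 5 of 9 in the first list, 0 of 14, 2 of 15 and 3 of 19 in the others.

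Markers of the cells that read class I stayed low. The 6 measured T-cell markers, among them Cd3e, Cd8a and Cd8b1, all lay below the median of all probe sets, and their mean was 3.44 to 3.64 on every array, CBE or PBS. The 5 natural killer markers had a mean of 3.71 to 3.91, and 0 of the 6 and 0 of the 5 passed in the mean of strains by limma. In SV129 the natural killer mean was 3.72 to 3.81 on PBS and 3.85 to 3.91 with CBE. In C57 it was 3.77 to 3.84 and 3.71 to 3.75, the opposite order. At such low signals a few of these cells in the slice may not have been detectable. Of 8 microglial markers 1, Csf1r, rose by 0.29 ± 0.06 (adjusted p = 0.033), and Trem2 changed by 0.63 (adjusted p = 0.056). Siglech (0.22), Aif1 (0.20), Fcrls (0.17), Cx3cr1 (0.16), Tmem119 (0.10) and P2ry12 (0.06) had an adjusted p of 0.33 or more. The mean of the 8 was 6.42 to 6.49 in FVB PBS and 6.60 to 6.71 in FVB CBE, 6.64 to 6.89 and 6.97 to 7.12 in C57, 6.54 to 6.73 and 6.70 to 7.44 in C3H, and 6.17 to 6.47 and 6.28 to 6.42 in SV129. The 2 groups did not overlap in FVB and C57. Other marker lists separated too, so separation was not particular to microglia. In C57 the endothelial mean was 6.74 to 6.87 on PBS and 6.96 to 7.22 with CBE. There the mean of cortical excitatory neurons was lower with CBE (8.71 to 8.78 against 8.56 to 8.68). In FVB the mean of meninges and fibroblasts was also lower (5.52 to 5.69 against 5.37 to 5.50). In a slice of tissue more cells of a type and more RNA per cell cannot be told apart, and the part of microglia in the class I rise was not tested.

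The genes most like 3 of the members were taken over the 24 arrays by Pearson correlation, after each strain's mean was removed, as a description. Arrays share treatment and depth of signal, so these values carry no test. H2-K1 was most like C4b (0.89), Pld4 (0.89) and Ctss (0.89), and B2m most like Ctss (0.95), Pld4 (0.94) and C1qb (0.93). C4b and C1qb are complement components, and Ctss and Pld4 are lysosomal enzymes of phagocytes. Tap1 was most like Iigp1 (0.91), Gbp7 (0.90) and Ddx60 (0.89), which are interferon-induced genes. Among the 9 genes, H2-K1 and B2m ran closest (0.94), and Nlrc5 reached 0.51 at most, with Tap1.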

How the data were processed

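The authors deposited log2 signal, for 41034 probe sets on each array; per the submitters' processing notes Partek and RMA were used, with versions and order not given in the sources used here. The log2 base was inferred from the range of the values. Of the probe sets, 23521 had 1 symbol in the platform annotation, 1814 had several and 15699 had none given. One probe set per symbol (the highest mean) left 22180 genes, with no filter on dim ones. limma 3.58.1 in R 4.3.3 fitted 1 mean per group over all 24 arrays (16 residual degrees of freedom). Tests were two-sided, adjusted by Benjamini-Hochberg over all genes within a contrast. The labels do not say whether mice shared litters or batches. The p-values weigh differences of group means against the spread between arrays within groups. They could be too small if mice of a group shared a litter or batch. Replicate numbers were not treated as pairs in the main fit. On simulated data with normally distributed noise, a log2 change of 0.5 was recovered for 100% of genes in the mean of 4 strains. Within strains it was recovered for 73.1% in SV129 and FVB and 65.7% in C57 and C3H. A change of 1 was recovered for 94.0% in FVB. False calls numbered 11 in the mean and 2 to 10 within strains. The changed genes were picked at random and changed alike in all strains. Each strain had 67 genes changed by 0.5, 67 by 1 and 66 by 2. On the real arrays fewer genes passed within a strain, from 8 (C3H) to 72 (C57). The Benjamini-Hochberg cut on p loosens as more genes pass, so the simulated shares within strains may be too high for the real arrays. They also need not hold for members with a wider spread. On the real arrays, changes of 1.17 for H2-K1 in C57 and 1.07 for B2m in C3H did not pass. The members and lists were chosen with earlier results of these data known. Marker lists of endothelium, excitatory neurons and meninges are described where they separated, after their values were seen. All 10 members were always named, and related genes by smallest p among those past the threshold (up to 4 per list), or the 2 smallest where none passed; chaperones, RFX and NF-Y subunits, Erap1, Irf1, Fcgrt, Hfe, the microglial markers other than Csf1r and the shared probe sets were named in addition, after their values were seen. Alternatives tried were the replicate number as a block, each array left out, quantile normalization, median centring, an ordinary linear model, an intensity trend, a filter on dim genes, other probe sets and fits within 1 strain. An unplanned contrast, the mean of FVB, C57 and C3H, was tried as well.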

Additional observations from a re-analysis of the deposited data

How the results depend on the processing

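In the mean of 4 strains, 5 of the 9 genes rose, and this count ran from 5 to 7 over the 24 fits that left out 1 array. It was 3 with the second brightest probe set, which exists for H2-Q4 (0.03) and Tapbp (0.07) alone of the 9. In the unplanned mean of FVB, C57 and C3H, 6 passed by limma, with H2-T23 added (0.72 ± 0.16, adjusted p = 0.032). That mean leaves out SV129, where the median change was smallest, and describes the other strains alone. In single strains the count ran from 0 to 0 in SV129, 1 to 5 in FVB, 0 to 5 in C57 and 0 to 3 in C3H as arrays were left out. For the F-test of equal changes it ran from 0 to 2 and for the F-test of PBS groups from 1 to 1. An ordinary linear model gave 1 call in FVB and 0 in C57. Fits on the 6 arrays of a strain gave 1 in FVB and 4 in C57, where H2-K1 (adjusted p = 0.0179) and B2m (0.00736) were gained and Tap1 lost. The share of all genes called was not determined for the alternative fits of this section, apart from left-out arrays given with a share above. Their counts therefore cannot be told apart from fits that called fewer or more genes throughout. Quantile normalization added Tapbp in FVB (0.0482). With the second brightest probe set C57 had 1 call, and the changes of H2-Q4 in C57 and Tapbp in C3H turned to -0.03 and -0.02. An intensity trend ended the FVB call of H2-K1 (adjusted p = 0.062). The array medians in SV129 were 4.14 to 4.17 on PBS and 4.19 to 4.22 on CBE. With each array centred on its median the SV129 changes of H2-K1, Tap1 and Tapbp were -0.04, -0.05 and -0.01, and Tap1 was -0.04 after quantile normalization. As arrays were left out, changes near 0 turned sign: in SV129, H2-K1 ran from -0.31 to 0.27, H2-T23 from -0.14 to 0.16, Tap1 from -0.13 to 0.07, Tapbp from -0.02 to 0.08 and Nlrc5 from 0.00 to 0.12. Nlrc5 ran from -0.05 to 0.09 in FVB and from -0.03 to 0.01 in C3H, and Tapbpl from -0.17 to 0.01 in C3H. The cause was not tested. With the replicate number as a block, the mean of 4 strains again had 5 calls and Tap1 in C57 lost its call (1.05, adjusted p = 0.0501). Correlations of same-numbered arrays ran from -0.19 to 0.20. They were not set beside arrays of different number, so they cannot decide whether a number marks a shared litter or batch. A filter on dim genes removed Tap2 and Nlrc5. Array values carry no count of molecules, and signals near background limit what Tap2 and Nlrc5 can show. The PBS signals of Tap1 and H2-T23, and of H2-Q4 in FVB (4.22) and C3H (4.24), also lay near the median of all probe sets. That can shrink their changes and strain differences.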
